A study of Mus musculus with 42 samples.

Results

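Tag-specific RNA association of Tnrc6a was measured in the second experiment of a study of RNA-silencing pathways in mouse embryonic stem cells. The members are 12 of the series' 42 libraries, chosen by their titles and by the label naming experiment 2: 3 libraries each of IP and input RNA from tagged cells, and 3 each of IP and input RNA from untagged cells. All 4 groups were 129S6/SvEvTac embryonic stem cells with a GFP_5xT71BS reporter at yGlob and a stable FLAG-Cas9::T2A::Blasticidin transfection, grown with serum and LIF on gelatin. The tagged cells carried HA-AVI-Tnrc6a in addition. Lysates of confluent dishes grown in triplicate were incubated with magnetic beads against the HA tag, and bead-bound RNA (IP) and lysate RNA (input) were sequenced with a stranded total RNA kit. The labels do not say how many clones the tagged or untagged line represents, and RNA that the tag brings down cannot be told apart from any other difference between these lines. The series title puts the question as how separate RNA-silencing routes meet at GW182 proteins. The series also holds tagged cells lacking Trim71 or Ago2. Their libraries entered the fit through the filter on low counts, the scaling and the shared estimate of spread, and not through the contrast.

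The quantity reported, called enrichment below, is the log2 IP-to-input ratio of tagged cells less that of untagged cells. RNA held by the beads without any tag is thus allowed for as a ratio and not removed as an amount. A transcript that beads alone hold strongly can have a negative value although it is higher in tagged IP than in tagged input. The experiment 2 table listed 19866 genes, of which 19778 were tested. Levels are given as normalised read counts scaled to library size (CPM) for replicates 1, 2 and 3, changes as log2 ± SE with 3 libraries a group, and a gene was called at an edgeR adjusted p below 0.05. Because CPM is not corrected for gene length, levels are compared between libraries and not between genes. In bulk RNA, fewer cells with a transcript and less transcript per cell cannot be told apart.

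Tnrc6a is a member of the GW182 family, scaffold proteins that bind Argonaute through glycine-tryptophan repeats. Argonaute carries a microRNA that pairs, mainly through its seed at bases 2 to 8, with sites in messenger RNA. GW182 then recruits the deadenylases CCR4-NOT and PAN2-PAN3, and the bound message is silenced and decays. Embryonic stem cells express the miR-290 cluster at a high level, and its members speed passage from G1 to S phase by repressing cell-cycle inhibitors. TRIM71 binds RNA in stem cells and early embryos and represses messages of its own.

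The mature sequences of 4 miR-290 cluster members are shown because messages reported as their targets are among those followed here. They are taken from RefSeq, build GRCm38.p6, and all lie on the plus strand of chromosome 7, at chr7:3218674-3218697, chr7:3218968-3218989, chr7:3220691-3220712 and chr7:3220815-3220837 in the order given. Capitals mark the seed.
mmu-miR-290a-3p: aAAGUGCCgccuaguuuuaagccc
mmu-miR-291a-3p: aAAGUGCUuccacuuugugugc
mmu-miR-294-3p: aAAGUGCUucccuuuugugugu
mmu-miR-295-3p: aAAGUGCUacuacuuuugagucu
The last 3 share the seed AAGUGCU, which 5 of the 1679 mature mouse entries in the table carry. The seed of miR-290a-3p differs from it in its last base.

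The RNA of the tagged gene itself was the most strongly enriched of the genes with a symbol. Tnrc6a (ENSMUSG00000052707) measured 98.2, 98.7 and 89.7 CPM in untagged input, 90.4, 82.7 and 74.2 in untagged IP, 93.8, 83.1 and 86.7 in tagged input, and 24216, 17194 and 12945 in tagged IP. Only the tagged IP libraries stood apart, and replicate 1 was the highest of them, as it was for most rising genes below. The IP-to-input ratio was 206-fold in tagged and 0.863-fold in untagged cells, an enrichment of 7.90 ± 0.31 (edgeR adjusted p = 1.03e-15). Tnrc6a took 2.03%, 1.56% and 1.22% of all counts in the 3 tagged IP libraries. The input levels of the 2 lines overlapped.

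The messages of all 7 measured GW182 and Argonaute genes were enriched, with a median of 1.83 including Tnrc6a, where 18.9% of all genes tested were called higher and the median gene stood at -0.03. Ago1, an Argonaute without the slicer activity of Ago2, measured 99.8, 108 and 101 CPM in untagged input, 90, 92.2 and 83 in untagged IP, 104, 87.3 and 90.5 in tagged input, and 607, 497 and 413 in tagged IP. Its enrichment was 2.65 ± 0.15 (edgeR adjusted p = 3e-13), and no tagged IP library came near the other groups. Ago2, the slicing Argonaute, measured 373, 434 and 370 CPM in untagged input, 290, 313 and 255 in untagged IP, 390, 321 and 347 in tagged input, and 912, 817 and 756 in tagged IP. Its enrichment of 1.69 ± 0.14 (edgeR adjusted p = 1.79e-10) again came with no overlap between tagged IP and the rest. The paralogues Tnrc6b, Tnrc6c, Ago3 and Ago4 rose by 1.83, 0.83, 1.14 and 2.13. Trim71 messenger RNA was also enriched, at 270, 278 and 267 CPM in untagged input, 212, 252 and 249 in untagged IP, 309, 265 and 273 in tagged input, and 730, 660 and 585 in tagged IP (1.41 ± 0.12, edgeR adjusted p = 2.55e-10).

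Over the transcriptome, 5479 of 19778 genes were called (27.7%), 3745 higher (18.9%) and 1734 lower (8.77%). Large changes were mostly rises: 1867 genes rose at least 2-fold (9.44%) and 202 fell at least 2-fold (1.02%). The genes called higher had a median enrichment of 0.99. Their median change from untagged to tagged cells was 0.95 in IP and -0.03 in input, and enrichment is the former less the latter. In 3641 of these 3745 genes (97.2%) every tagged IP library exceeded every untagged IP library, which held for 27.3% of all genes tested. The genes called lower had a median of only -0.39, with 1536 of 1734 fully separated in IP, against 23.8% of all genes; the genotypes' IP-to-input ratios did not overlap in 27.1% of all genes. Scaling by TMM sets the median gene near 0. With library size alone the median moved from -0.03 to -0.24 and the share of higher calls among all calls from 68.4% to 36.5%, against 62.4% with RLE size factors. Most counts of fallen genes in the lists below grow under that scaling, and directions are relative to the bulk of genes.

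**Figure D1:**
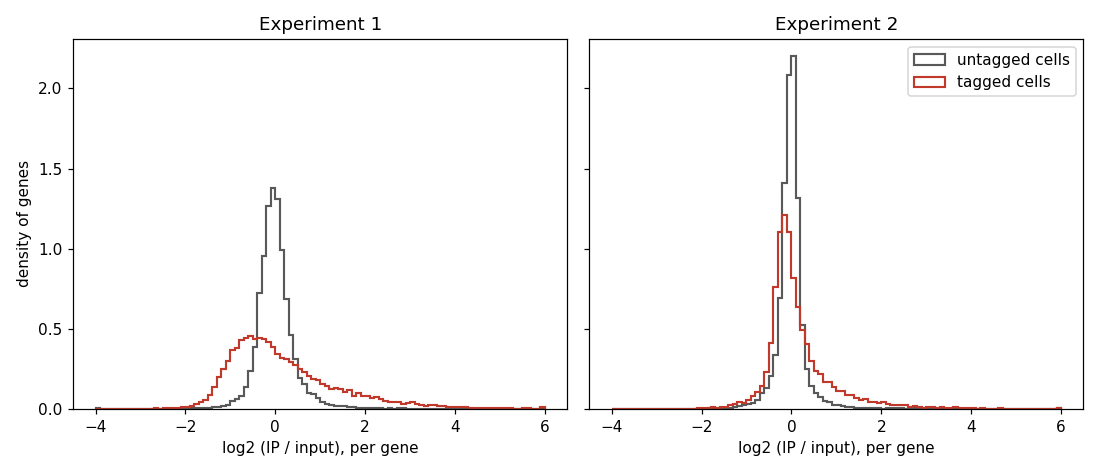
Distribution over genes of the log2 IP-to-input ratio in untagged (grey) and tagged (red) cells in both experiments, with values beyond the axis collected in the end bins. In experiment 2 the tagged ratios spread to an SD of 0.74 against 0.37 in untagged cells, with a long right side, and in experiment 1 to 1.23 against 0.51.

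The libraries were of even depth, with 16296447 to 18851954 counts each. All 12 pluripotency markers examined were present in the inputs at 186 to 1740 CPM, while the markers of primitive endoderm, trophoblast, neuroectoderm, mesoderm and fibroblasts that could be tested lay below 30 CPM. The inputs of the tagged and untagged lines differed in 275 genes (1.39%) in experiment 2. Untagged IP replicate 2 held less of the bead-retained Bcar1 transcript than its partners, as given below; without it 5184 genes were called.

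Messages reported as miR-290 targets were enriched throughout. All 10 measured members rose, with a median of 2.56, between 1.24 and 4.65. Cdkn1a, encoding the cyclin-dependent kinase inhibitor p21, measured 67.5, 73.6 and 69.4 CPM in untagged input, 65.3, 76.2 and 75.5 in untagged IP, 61.2, 67.3 and 64.6 in tagged input, and 2104, 1592 and 1317 in tagged IP. The enrichment was 25.1-fold (4.65 ± 0.21, edgeR adjusted p = 5.37e-15), and tagged IP did not overlap any other group. Rbl2, encoding the pocket protein p130 that restrains E2F, measured 18.6, 20.8 and 17.2 CPM in untagged input, 16.4, 18.2 and 14.7 in untagged IP, 16.8, 15.3 and 15.6 in tagged input, and 391, 265 and 211 in tagged IP. It rose by 4.38 ± 0.27 (edgeR adjusted p = 1.13e-12).

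Casp2, encoding an apoptotic caspase, measured 25.6, 28.2 and 29.3 CPM in untagged input, 23.3, 26.3 and 24.8 in untagged IP, 28.5, 27.1 and 24.4 in tagged input, and 505, 361 and 291 in tagged IP (4.01 ± 0.23, edgeR adjusted p = 2.74e-13). Ei24, a p53-induced gene, measured 149, 148 and 139, then 139, 146 and 145, then 140, 138 and 123, and 1174, 916 and 762 CPM in the same 4 groups (2.85 ± 0.16, edgeR adjusted p = 1.37e-13). Wee1, encoding the kinase that holds CDK1 inactive, measured 519, 396 and 344 CPM in tagged IP and between 64.5 and 74.7 in the 9 other libraries, a rise of 2.65 ± 0.15. Lats2 (ENSMUSG00000021959), a Hippo pathway kinase, was of low abundance, with 42.4, 28.9 and 21 CPM in tagged IP against 3.95 to 5.67 elsewhere (2.47 ± 0.39). Tgfbr2, the type II TGF-beta receptor, was lower still, at 11, 9.23 and 10.2 CPM in tagged IP against 1.28 to 2.86 elsewhere (1.72 ± 0.31, edgeR adjusted p = 0.000104). In each of these genes the tagged IP libraries lay above all others. The small GTPase gene Rhoc, the F-box gene Fbxl5 and the kinase gene Akt1 had the smallest rises of the list, at 1.33, 1.24 and 1.24.

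**Figure D2:**
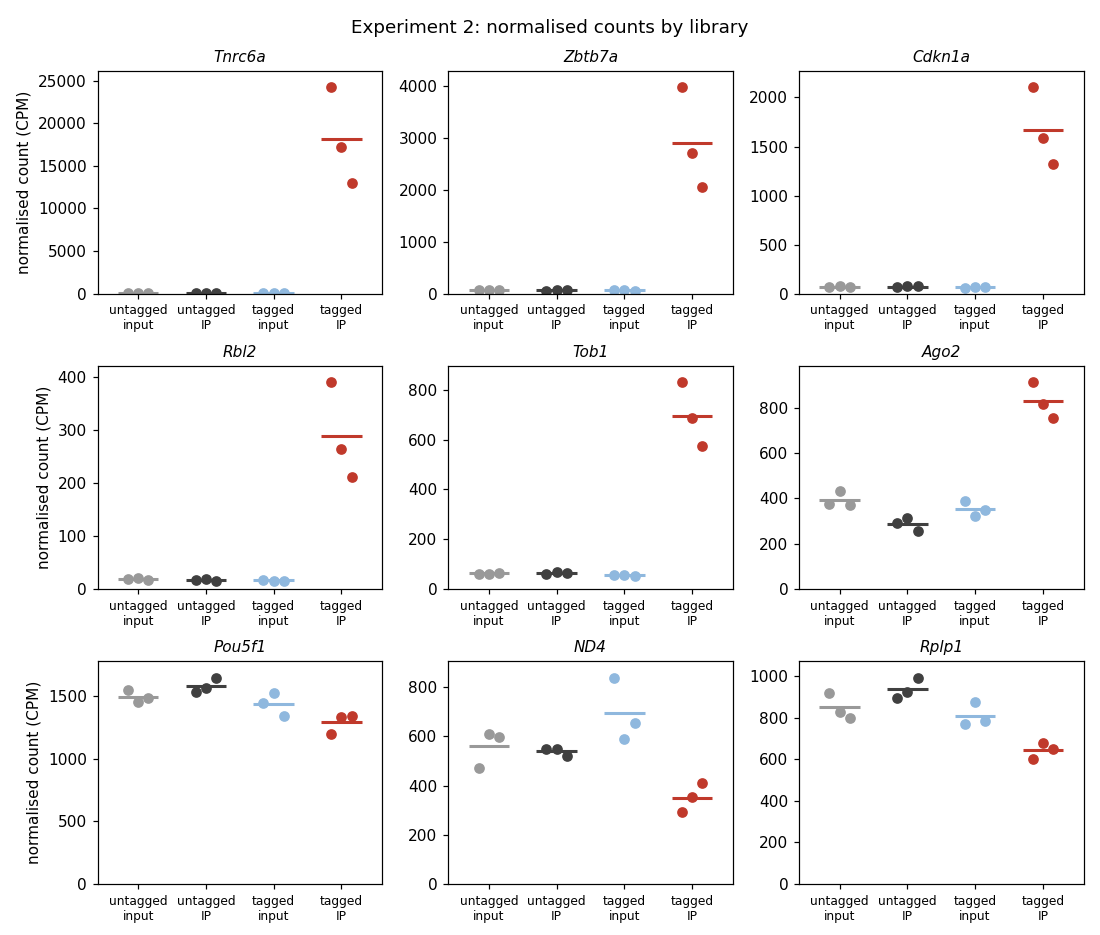
Normalised counts (CPM) of 9 transcripts in the 12 libraries of experiment 2, each point a library and each line a group mean. Tnrc6a, Zbtb7a, Cdkn1a, Rbl2, Tob1 and Ago2 are high in tagged IP only, Pou5f1 changes little, and the mitochondrial ND4 and the ribosomal protein gene Rplp1 are lowest in tagged IP.

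Of 8 measured genes reported as TRIM71 targets, 7 were enriched and none was called lower, with a median of 1.78. Cdkn1a and Rbl2 stand on this list too. Mbnl1, encoding the muscleblind splicing factor, measured 9.95, 10.6 and 11 CPM in untagged input, 7.4, 8.3 and 7.04 in untagged IP, 12.8, 10.2 and 10.1 in tagged input, and 174, 140 and 108 in tagged IP (4.14 ± 0.24, edgeR adjusted p = 2.81e-13). Inhbb, encoding the activin beta-B subunit, measured 229, 224 and 230, then 211, 213 and 202, then 246, 221 and 214, and 1420, 1006 and 834 CPM in the same groups (2.39 ± 0.21, edgeR adjusted p = 4.99e-10). Both were separated from all other libraries in tagged IP. Rbl1, the pocket protein p107, rose by 1.17 ± 0.13, the plexin receptor gene Plxnb2 by 0.94 ± 0.17 and the EGR corepressor gene Nab2 by 0.53 ± 0.12. The immediate early gene Egr1 was not called (0.56 ± 0.76, edgeR adjusted p = 0.636). Its libraries scattered within groups, from 30.8 to 91.6 CPM in untagged input and from 47.6 to 142 in tagged input, so the groups overlapped. The IP and input libraries of the same number lay close. A fit with a replicate block by dish, which took each line and number as a dish, gave nearly the same change (0.54, edgeR adjusted p = 3.59e-05). Under that fit 8 of 8 on the list were called higher. The labels do not say whether same-numbered IP and input libraries share a dish, so this call rests on that assumption.

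Among the genes of the machinery that shortens and decaps messages or builds P-bodies, 16 of 37 were enriched, with a median of 0.29. That is 43.2%, against 18.9% of all genes and 22.8% of protein-coding genes. The 4 called lower made up 10.8%, near the 8.77% of all genes. The highest were the antiproliferative adaptors that bridge RNA-binding proteins to CCR4-NOT. Tob1 measured 60.9, 61.3 and 65.4 CPM in untagged input, 61.2, 65.9 and 65 in untagged IP, 57, 57.3 and 51.3 in tagged input, and 830, 687 and 573 in tagged IP (3.62 ± 0.17). Tob2 rose to a like degree, from between 15 and 19 CPM elsewhere to 254, 196 and 159 in tagged IP (3.57 ± 0.23). The 4 called lower were Cnot3 and Cnot10 of CCR4-NOT, the deadenylase subunit Pan2 and the poly(A)-binding protein gene Pabpc1, none by more than 0.38 on the log2 scale. Over the 12 fits made without a library, the call of Cnot3 was lost in 2 (untagged input replicate 1, untagged IP replicate 3), that of Pan2 in 4 and that of Pabpc1 in 8, and 2 lower calls were left without untagged or tagged input replicate 3 or tagged IP replicate 1.

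The microRNA biogenesis genes resembled all genes tested in their shares of calls, with 3 of 14 higher (21.4%) and 1 lower (7.14%). The rises were the helicase gene Ddx3x (1.29 ± 0.13) and the let-7 inhibitors Lin28a (1.01 ± 0.10) and Lin28b (0.70). Dgcr8, the partner of Drosha, was called lower (-0.32 ± 0.10), a call lost without untagged input replicate 2 or tagged input replicate 1. The list's median of 0.09 changed to -0.12 with library size alone. Of regulators that bind messages, 23 of 35 were enriched (65.7%, against 18.9% of all genes), with a median of 0.74. The ARE-binding protein genes Zfp36 (2.88 ± 0.21) and Zfp36l2 (2.45), the roquin paralogue Rc3h2 (2.33), Nanos1 (2.65) and the polyadenylation regulators Cpeb2, Cpeb3 and Cpeb4 (2.29, 2.27 and 1.91) were the highest after Mbnl1. Zfp36 stood between 21.8 and 28.4 CPM outside tagged IP and at 192, 157 and 130 CPM within it. The decay factor gene Khsrp was the single lower call (-0.31), lost without tagged input replicate 3; 3 were called lower without untagged IP replicate 1.

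Genes of the G1-to-S transition were enriched in 21 of 33 cases (63.6%, against 18.9% of all genes), with a median of 0.84. Beside the inhibitors Cdkn1a and Rbl2 the list's rises included drivers of S phase. Ccne2, encoding cyclin E2, measured 16.1, 13.7 and 14.9 CPM in untagged input, 14.7, 13.4 and 13.3 in untagged IP, 15.5, 15.8 and 15.5 in tagged input, and 533, 358 and 302 in tagged IP (4.78 ± 0.26, edgeR adjusted p = 7.93e-14). The activator genes E2f2 and E2f3 rose by 4.05 and 3.48, from 19.7 to 27.2 and from 40.1 to 55.6 CPM outside tagged IP to 510, 360 and 263 and to 663, 494 and 399 CPM within it. Promoters and brakes of the cycle were thus both in the enriched fraction. Cdk4 was the only lower call (-0.20 ± 0.08, edgeR adjusted p = 0.0492), and it was lost in 8 of 12 fits that left out a library, kept only without tagged input replicate 3, untagged IP replicate 1 or 2, or tagged IP replicate 2.

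Signalling pathways showed enrichment of part of their members. Called higher were 45% of the TGF-beta list and 29.4% of the Wnt list, against 18.9% of all genes and 22.8% of protein-coding genes. The lower calls of the Wnt list made up 5.88%, against 8.77% of all genes. On the list of TGF-beta superfamily genes, which does not hold Gdf11, 18 of 40 rose and none was called lower (1 lower at an unadjusted p below 0.05 and 1 by DESeq2), with a median of 0.36; Lefty1, a Nodal antagonist, rose by 2.24 ± 0.28 although it was scarce, at 16.4, 10.9 and 11.4 CPM in tagged IP and 2.37 to 5.09 elsewhere. In the Wnt pathway 10 of 34 rose, led by the receptor gene Fzd6 (3.20 ± 0.22) and the receptor-clearing ligase gene Znrf3 (2.25 ± 0.19). The 2 lower calls were the secreted antagonist Sfrp1 (-0.37) and the effector Ctnnb1 (-0.40 ± 0.12, edgeR adjusted p = 0.0106). Ctnnb1, beta-catenin, measured 593, 655 and 687 CPM in untagged input, 702, 646 and 656 in untagged IP, 621, 634 and 695 in tagged input, and 455, 496 and 582 in tagged IP, so that tagged IP was the lowest group by a narrow margin. The call of Sfrp1 was lost in 8 of 12 fits without a library (kept without replicate 1 of untagged input, replicate 2 of tagged input, or replicate 3 of either IP), whereas that of Ctnnb1 held in all 12, and 4 members were called lower without tagged IP replicate 3.

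The largest rise in the FGF-ERK pathway was that of a ligand. Fgf4, the autocrine ligand of these cells, measured 187, 191 and 190 CPM in untagged input, 181, 190 and 186 in untagged IP, 183, 179 and 194 in tagged input, and 1509, 1219 and 1091 in tagged IP (2.81 ± 0.17, edgeR adjusted p = 4.85e-13). The 9 other libraries lay between 179 and 194 CPM. The exchange factor gene Sos1 rose by 2.26 ± 0.11. In all 15 of 36 rose (41.7%, against 18.9% of all genes). The GTPase Hras (-0.38), the kinases Araf (-0.32) and Map2k1 (-0.24), the receptor Fgfr1 (-0.27) and the phosphatase Dusp9 (-0.31) were called lower. These falls made up 13.9%, against 8.77% of all genes. The calls of Hras and Araf held in all 12 fits without a library, but 2 or 3 lower calls were left without untagged input replicate 1 or 2, tagged input replicate 2 or 3, or tagged IP replicate 1 or 2, and the median of 0.12 turned to -0.08 with library size alone. Of the immediate early genes 11 of 19 rose (median 0.71), led by Ier5 (3.91 ± 0.33) and the AP-1 gene Fosl2 (3.75 ± 0.31), and none was called lower (13 of 19 rose with the replicate block by dish).

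The Hippo pathway had 15 of 25 members enriched and none called lower (1 lower at an unadjusted p below 0.05 and 1 by DESeq2), with a median of 0.62. The share called higher was 60% here, 40.6% in the PI3K-Akt-mTOR list and 46.7% in the Bcl2 and p53 list, against 18.9% of all genes. Lats1, the kinase that restrains YAP, measured 27, 32.7 and 29.7 CPM in untagged input, 26.4, 25.6 and 25.3 in untagged IP, 36.5, 27 and 29.4 in tagged input, and 484, 371 and 310 in tagged IP (3.86 ± 0.22, edgeR adjusted p = 2.92e-13). Its tagged IP libraries lay above all others, as did those of its paralogue Lats2 given above. In the PI3K-Akt-mTOR pathway 13 of 32 rose (median 0.24), among them the Akt phosphatase Phlpp2 (2.53 ± 0.23) and the mTORC2 subunit Rictor (2.28 ± 0.15), and the GTPase Rheb was called lower (-0.36; 3 lower calls without tagged IP replicate 3, 2 without untagged IP replicate 3). Of the Bcl2 family and p53 pathway 14 of 30 rose (median 0.45). Bcl2l11, the BH3-only killer BIM, went from between 30.3 and 38.4 CPM elsewhere to 520, 420 and 349 in tagged IP (3.70 ± 0.18, edgeR adjusted p = 1.35e-14). The prosurvival gene Mcl1 (1.71) and the p53 inhibitor Mdm4 (1.66) rose as well, and the pore-forming Bax was called lower (-0.35 ± 0.10; 2 lower calls without untagged input replicate 1 or tagged IP replicate 2).

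**Figure D3:**
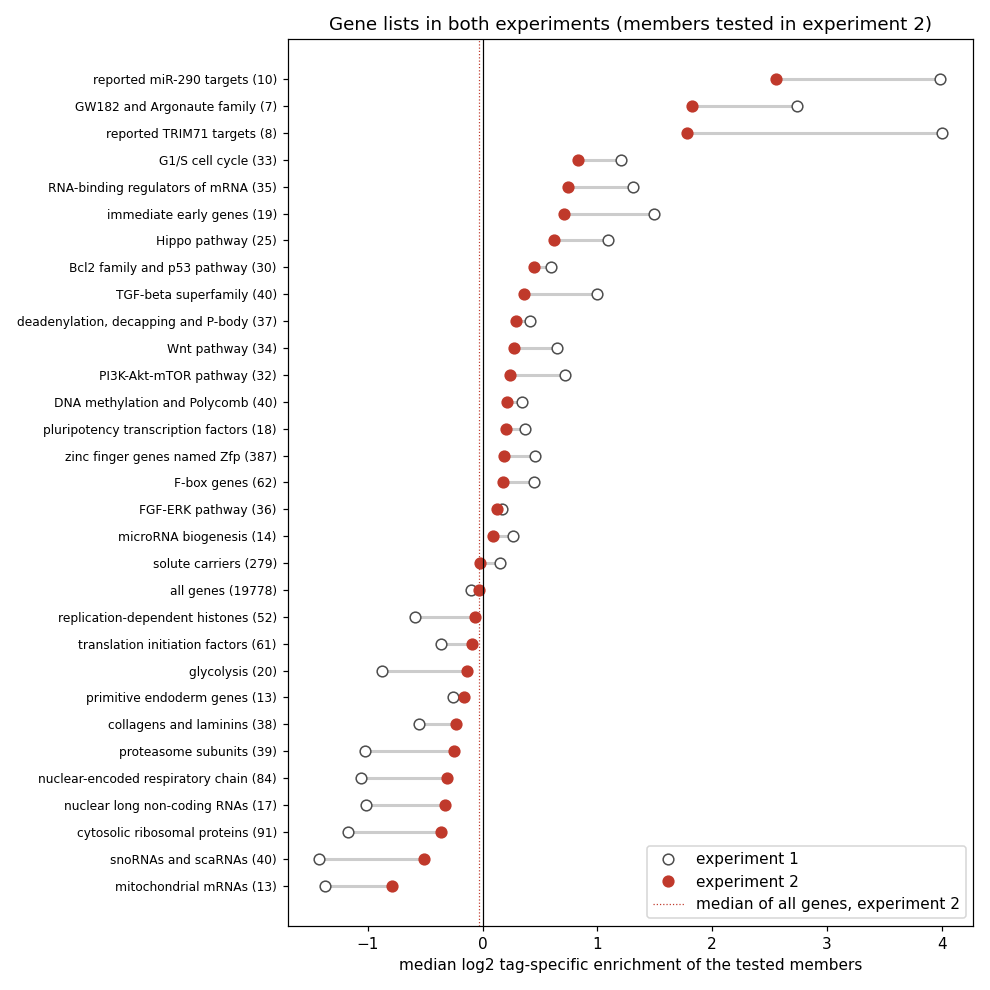
Median log2 enrichment of gene lists with at least 5 tested members, with the number tested in experiment 2 in brackets, from each experiment's own fit (open, experiment 1; red, experiment 2; dotted line, median of all genes in experiment 2 at -0.03). The list of spermatogenic cell genes described below, with a median of -2.40 in experiment 2, is not drawn. The members tested can differ between experiments. Reported TRIM71 targets are drawn at 4.01 over 9 genes in experiment 1 and 1.78 over 8 in experiment 2. Over the same 8 genes in a joint fit the medians were 3.19 and 1.71. Reported miR-290 targets lie highest at 2.56 in experiment 2, mitochondrial mRNAs at -0.79 and ribosomal protein genes at -0.36 lie low, and the open points lie farther out for most lists.

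Transcription factors of the zinc finger and Krüppel classes were often enriched. Of 387 tested genes named Zfp, 139 rose and 12 were called lower. The rises made up 35.9%, against 18.9% of all genes and 22.8% of protein-coding genes. The median of 0.19 became -0.02 with library size alone. The lower calls numbered 5 to 7 without untagged input replicate 1 or 2, untagged IP replicate 2 or tagged IP replicate 1. Zfp768 measured 4.02, 4.15 and 4.49 CPM in untagged input, 3.76, 4.53 and 4.72 in untagged IP, 4.39, 3.15 and 3.82 in tagged input, and 229, 166 and 146 in tagged IP (5.52 ± 0.32). Zfp367 measured 31.3, 31.1 and 30.6, then 27.3, 29.8 and 28.5, then 35, 30 and 31.4, and 1385, 1017 and 803 CPM in the same groups (5.17 ± 0.25). Zfp genes together made up 1.15% to 1.24% of counts in untagged IP and 1.71% to 1.92% in tagged IP. Grouping by the stem of the symbol gave 99 families of at least 15 members, and those named here were chosen after their values were seen. They were Zbtb (26 of 42 higher, median 0.77), Klf (12 of 17, 0.71) and Nr, mostly nuclear receptors (11 of 17, 0.96). Klhl, not a transcription factor class, had 12 of 26 (0.25). Of all genes 18.9% were called higher. None of these families had a lower call, nor had others such as Bcl, Tbc and Med. Stems also take in genes outside a family, such as Nr2c2ap and Zbtb8os.

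The largest enrichment after Tnrc6a among genes that met the abundance and separation conditions belonged to Zbtb7a, a zinc finger repressor. It measured 67.5, 65.5 and 69.3 CPM in untagged input, 59.6, 64.2 and 66.4 in untagged IP, 68.6, 63.8 and 59.5 in tagged input, and 3978, 2704 and 2047 in tagged IP, a rise of 48.4-fold (5.60 ± 0.27, edgeR adjusted p = 1.35e-14). The other leading rises were Cdk19 (5.02), a Mediator kinase, 9530068E07Rik (4.81), the G-protein subunit gene Gnb5 (4.81), Ccne2, the zinc finger gene Plagl2 (4.67) and Gdf11 (4.66), a ligand of the TGF-beta superfamily. A further rise of 8.09 ± 1.06 (edgeR adjusted p = 6.74e-07) fell on ENSMUSG00000110230, which has no symbol in the table. It was below 1 CPM in each of the 9 other libraries and at 180, 115 and 96.6 CPM in tagged IP.

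The pluripotency factors themselves divided. Klf2, a Krüppel factor of the naive state, measured 260, 272 and 279 CPM in untagged input, 281, 276 and 331 in untagged IP, 264, 278 and 265 in tagged input, and 1975, 1521 and 1234 in tagged IP (2.42 ± 0.17, edgeR adjusted p = 8.45e-12). Mycn rose by 1.61 ± 0.15, Stat3 by 0.96, Klf4 by 0.62 and Sox2 by 0.39, within 9 of 18 that rose (median 0.21). Pou5f1, encoding Oct4, was called slightly lower (-0.24 ± 0.09, edgeR adjusted p = 0.0395), a call lost without untagged input replicate 2 or 3, tagged input replicate 2, untagged IP replicate 3 or tagged IP replicate 1, and Nanog was not called (-0.12 ± 0.09). Among DNA methylation and Polycomb genes 17 of 40 rose (median 0.21), with the Polycomb reader Cbx6 at 3.28 ± 0.21 and the DNA demethylase Tet3 at 2.24 ± 0.25. The methyltransferase Dnmt3b (-0.27) and the histone chaperone Rbbp4 (-0.22) were called lower. Neither call was left without untagged input replicate 1 or 2, tagged input replicate 3 or untagged IP replicate 3, and 1 was left without tagged input replicate 2, tagged IP replicate 2 or 3. Primitive endoderm genes gave 1 rise, the receptor Pdgfra (1.57), and 1 fall, the matrix protein Sparc (-0.49), of 13 (2 falls without tagged input replicate 2, untagged IP replicate 3 or tagged IP replicate 3).

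F-box genes, whose products select substrates for ubiquitin ligases, were enriched in 23 of 62 cases. That is 37.1%, against 18.9% of all genes and 22.8% of protein-coding genes. The list's median of 0.18 became -0.02 with library size alone. Fbxo10 rose by 2.92 ± 0.18 and Fbxo28 by 2.27, and Fbxw9 was called lower (-0.39). The lower count was 4 without tagged IP replicate 3, 3 without tagged input replicate 1 and 2 without untagged IP replicate 1. Proteasome subunits, from the same degradation route, lay on the other side: 0 of 39 were called higher by the edgeR test (1 at an unadjusted p below 0.05, 0 by DESeq2) and 17 lower, against 8.77% of all genes, with a median of -0.25. The name pattern for this list also took Psmc3ip and Psma5-ps, which are not subunits. Psmd8, a lid subunit, measured 156, 154 and 160 CPM in untagged input, 160, 169 and 171 in untagged IP, 150, 155 and 149 in tagged input, and 117, 123 and 126 in tagged IP (-0.40 ± 0.09, edgeR adjusted p = 0.000604). The list's lower calls numbered 8 to 10 without replicate 2 of either input or replicate 3 of either IP.

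Messages for the abundant housekeeping machinery were depleted, by small amounts. Of 91 cytosolic ribosomal protein genes 68 were called lower (74.7%), with a median of -0.36. Rpl39 measured 226, 235 and 241 CPM in untagged input, 252, 249 and 256 in untagged IP, 228, 234 and 221 in tagged input, and 160, 182 and 179 in tagged IP (-0.50 ± 0.10, edgeR adjusted p = 0.000348). Rps29 had a fall of like size (-0.53 ± 0.11). Ribosomal protein genes took 6.87% to 7.77% of counts in the inputs, 7.14% to 7.69% in untagged IP and 4.53% to 5.38% in tagged IP, so the tagged IP range lay below the others. Rps27 and Rpl7l1 were the 2 called higher, the latter not with library size alone or without tagged IP replicate 1. Rps27 went from between 295 and 355 CPM elsewhere to 793, 686 and 560 in tagged IP (1.00 ± 0.12, edgeR adjusted p = 2.03e-07). Ribosomal protein genes have many near-identical copies, and how the counting divided reads among them is not given in the sources used here.

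The nuclear-encoded respiratory chain had 45 of 84 genes called lower and 1 higher, with a median of -0.31. The small complex I subunits Ndufa1 (-0.66 ± 0.16) and Ndufb1 (-0.54 ± 0.12) were the largest named falls. Ndufa5 rose (0.47 ± 0.16), a call lost with library size alone and in 9 of 12 fits that left out a library, kept without untagged input replicate 1, tagged input replicate 2 or tagged IP replicate 3. Of 13 mitochondrially encoded mRNAs, a list added after the values were seen, 11 were called lower and none higher, with a median of -0.79. These transcripts are made and translated inside the organelle. ND4 measured 473, 611 and 598 CPM in untagged input, 549, 547 and 522 in untagged IP, 839, 591 and 653 in tagged input, and 291, 352 and 412 in tagged IP (-0.92 ± 0.21, edgeR adjusted p = 0.00146). COX2 measured 571, 562 and 521, then 574, 497 and 478, then 756, 564 and 570, and 255, 325 and 374 CPM in the same groups (-0.89 ± 0.18, edgeR adjusted p = 0.000418). In both the tagged IP libraries lay below all others and tagged input replicate 1 was the highest library. ATP8 and ND2 were the 2 not called.

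Initiation factors of translation were mixed, with 6 of 61 higher and 9 lower (median -0.09). The falls included 5 subunits of the eIF3 complex, Eif3l (-0.41), Eif3g, Eif3k, Eif3i and Eif3e, and the rises Eif5a2 (0.78), Eif4h (0.74) and Eif4e2 (0.70), a cap-binding protein linked to repression. Glycolysis genes had 1 rise, the kinase gene Pdk1 (1.19 ± 0.12), and 1 fall, the glucose transporter Slc2a3 (-0.48), of 20. That list had no lower call without replicate 3 of either input or replicate 1 or 2 of tagged IP, 2 without untagged IP replicate 2 or 3, 3 without tagged IP replicate 3 and 5 without tagged input replicate 1. Solute carriers resembled all genes tested, with 57 of 279 higher (20.4%), 28 lower (10.0%) and a median of -0.03. Replication-dependent histones, whose messages have no poly(A) tail, gave 1 rise (H1f2, 0.63 ± 0.15; 2 rises without tagged input replicate 2) and 1 fall (H2bc21, -0.69 ± 0.25, lost in 6 of 12 fits without a library) of 52. Those 6 left out untagged input replicate 1, tagged input replicate 2, untagged IP replicate 1 or 3, or tagged IP replicate 1 or 2. Of 38 collagens and laminins 3 rose (Col26a1, 1.86 ± 0.28, Col17a1, 1.47 ± 0.25, and Lama3, 1.17) and Col22a1 and Lamb2 were called lower (6 lower calls without tagged IP replicate 3, 4 without untagged IP replicate 3).

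Long non-coding RNAs fell on both sides. H19, an imprinted cytoplasmic RNA that hosts miR-675, measured 6.56, 6.33 and 7.98 CPM in untagged input, 6.35, 5.48 and 7.04 in untagged IP, 11.3, 12.1 and 13.5 in tagged input, and 124, 90.8 and 76.8 in tagged IP (3.13 ± 0.28, edgeR adjusted p = 1.12e-09). Its tagged inputs lay above its untagged inputs, by far less than the IP difference. Norad, a cytoplasmic RNA that binds Pumilio proteins, measured 119, 120 and 119, then 98.9, 114 and 107, then 116, 117 and 108, and 443, 344 and 283 CPM in the same groups (1.81 ± 0.17). The other 8 called of 17 on this list were lower, including Xist (-0.48, lost without untagged input replicate 3 or untagged IP replicate 1), Meg3 (-0.51 ± 0.11), Firre (-0.39) and the snoRNA host genes Gas5 and Snhg6, and the list's median was -0.33. Tsix was called lower too (-0.55 ± 0.16), but it overlaps Xist on the other strand and the strand setting of the counting is not given in the sources used here. Snora81 and Snora17 were the 2 lower calls of 40 snoRNAs and scaRNAs; none rose, and the calls were lost in 6 and 7 of 12 fits without a library, both of them without replicate 1 of either input or replicate 1 or 2 of tagged IP.

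By annotated class, 22.8% of 14419 protein-coding genes were called higher and 9.71% lower. Of 691 lncRNA genes 11.0% were called higher, and of 882 pseudogenes 3.85% higher and 11.8% lower. Among protein-coding genes the share called higher went with the gene length column of the table. Over 5 classes of equal size, from the shortest (204 to 2420 bases) to the longest (7485 to 123179 bases), it was 9.99%, 18.3%, 24.7%, 28.7% and 32.3%, and the share called lower was 15.8%, 12.9%, 8.95%, 7.21% and 3.61%. Longer genes also collect more counts, and the part of that in the calls was not tested.

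The 202 falls of at least 2-fold were mostly scarce transcripts, and included ND4L of the mitochondrial mRNAs, Snora81, Snora17 and Col22a1 from the lists above. Their median level was 0.923 CPM, against 18.4 for the 1867 rises of at least 2-fold, and 7 of them reached a mean of 2 log2 CPM. The count depends on the scaling, with 375 such falls under library size alone. The largest among genes with a mean of at least 2 log2 CPM and no overlap of the tagged and untagged IP-to-input differences was Atp8b3, encoding an aminophospholipid transporter of sperm. It measured 1.69, 3.67 and 4.94 CPM in untagged input, 9.37, 6.69 and 6.31 in untagged IP, 3.31, 7.47 and 7.02 in tagged input, and 3.83, 2.85 and 2.97 in tagged IP (-1.99 ± 0.47, edgeR adjusted p = 0.00202). Untagged IP exceeded untagged input, whereas tagged IP lay at or below most tagged inputs, and the tagged IP and untagged input values overlapped. Rimbp3, which acts in sperm head shaping, measured 3.6, 2.98 and 3.84, then 5.86, 6.3 and 3.92, then 5.13, 5.92 and 5.56, and 4.64, 3.4 and 2.8 CPM in the same groups (-1.25 ± 0.28, edgeR adjusted p = 0.00113), with overlap of the IP groups.

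A list of 52 genes of spermatogenic cells was therefore added after the values were seen, which gives its counts no independent weight. Of these 34 were tested, and 18, including Prm1, Prm2, Tnp1 and Tnp2, had no tested row. Among the 34 tested 25 were called lower and 1 higher (Adam1a, a widely expressed gene, 0.60), with a median of -2.40, and 24 of the 25 belong to the 202 falls. Their counts summed without Adam1a came to 24.5, 29.9 and 38.1 CPM in untagged input, 78.3, 63.7 and 41.9 in untagged IP, 36.3, 67.5 and 56.0 in tagged input, and 37.4, 22.7 and 27.1 in tagged IP. Every untagged IP sum was above every untagged input, and the tagged IP sums lay below all tagged inputs except that tagged IP replicate 1 was just above tagged input replicate 1. Crisp2, an acrosomal protein gene, measured 0.0529, 0.692 and 0.848 CPM in untagged input, 5.06, 2.32 and 1.42 in untagged IP, 0.789, 2.99 and 2.66 in tagged input, and 1.28, 0.304 and 0.582 in tagged IP (-4.02 ± 0.92, edgeR adjusted p = 0.00137). Adam3, a sperm surface protein gene, gave -3.89 ± 0.88 (edgeR adjusted p = 0.0012) from similar levels, and the piRNA-pathway genes Piwil1 and Tdrd6 gave -1.55 and -3.41. The part of this spread between dishes of the same line in the falls was not tested. In experiment 1, 13 of the list were tested, with 1 called lower and 1 higher.

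**Figure D4:**
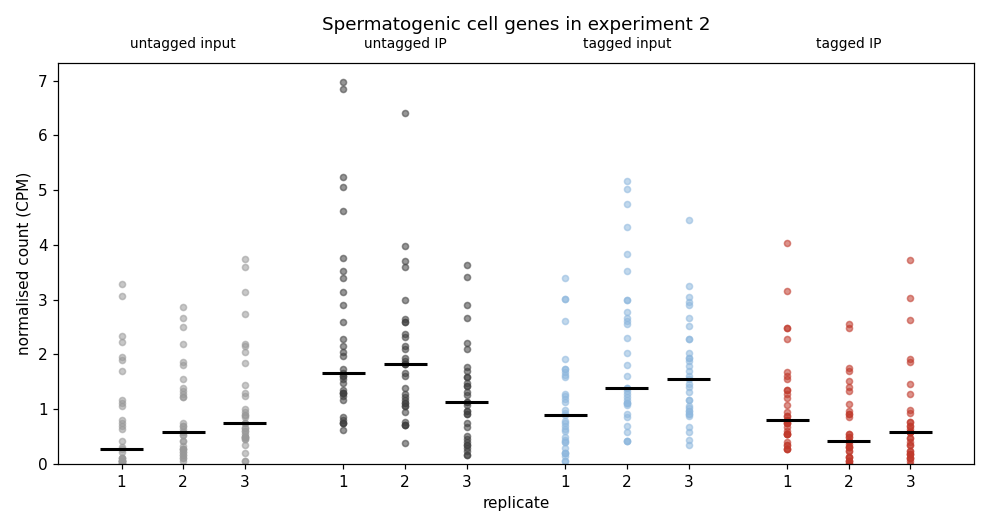
Normalised counts (CPM) of the 33 tested spermatogenic genes other than Adam1a in each of the 12 libraries of experiment 2, each point a gene and each black bar the median. Levels are low throughout, highest in untagged IP replicates 1 and 2 and in tagged input replicates 2 and 3, and lowest in untagged input replicate 1 and tagged IP replicate 2.

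Experiment 1 holds the same 4 kinds of library, and the strength of enrichment was compared gene by gene in a joint fit of 18620 genes present in both tables. The difference was called for 5303 genes (28.5%), 3227 with a lower value in experiment 2 (17.3%) and 2076 with a higher one (11.1%). Both groups mostly lay closer to 0 in experiment 2. Of the 3227, 3171 (98.3%) were smaller in size, with the median falling from 1.63 in experiment 1 to 0.65. Of the 2076, 2057 (99.1%) were smaller in size, with the median going from -1.03 to -0.27. Higher values made up 39.1% of the called differences, but 21.4% with library size alone, 50.8% with the tagged and untagged groups fitted alone, and 49.2% without tagged input replicate 3 of experiment 1. The share of calls was also smaller: by each experiment's own fit, 56.9% of 18772 genes were called in experiment 1 (28.1% higher, 28.8% lower) and 27.7% in experiment 2. A difference of at least 2-fold was called for 9.6% of genes, 7.55% lower and 2.05% higher in experiment 2. The SD over genes of the tagged IP-to-input ratio was 1.23 and 0.74 in log2, and that of the untagged ratio 0.51 and 0.37. The inputs of the tagged and untagged lines differed in 10.6% of genes in experiment 1 and 1.39% in experiment 2, and the part of any of these in the difference was not tested.

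**Figure D5:**
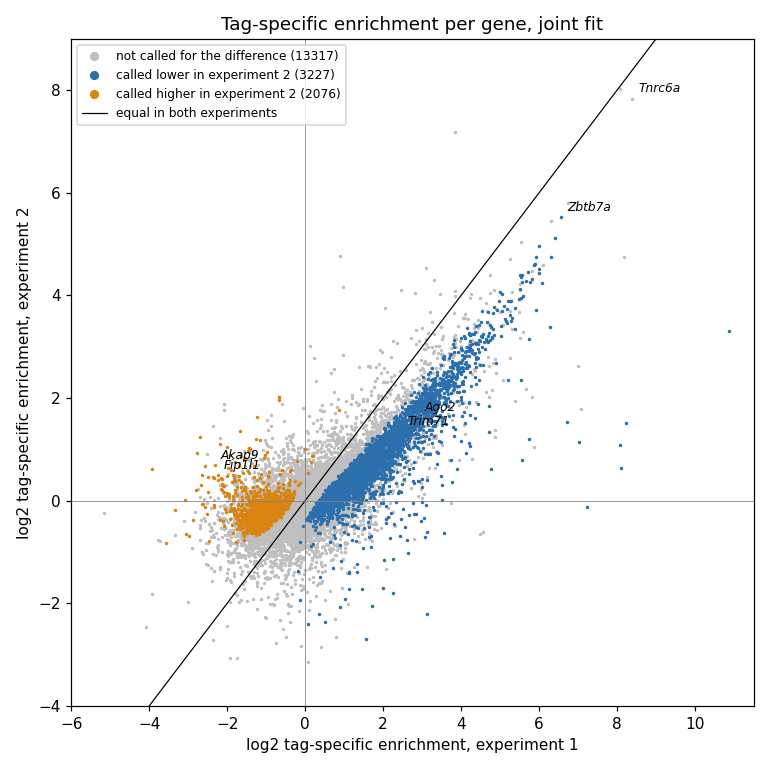
Log2 enrichment of 18620 genes in experiment 1 (horizontal) and experiment 2 (vertical) from the joint fit, with genes called lower in experiment 2 in blue (3227), called higher in orange (2076) and not called in grey (13317); the line marks equal values. Most blue genes lie right of 0 and below the line, most orange genes left of 0 and above it, and a few far points such as Ntn4 and Prr15 are scarce transcripts.

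By each experiment's own fit, the 3516 genes called higher in both had a median enrichment of 1.76 in experiment 1 and 1.01 in experiment 2, and the median ratio of the log2 changes was 0.605 (quartiles 0.500 to 0.715). For the 1397 called lower in both the ratio was 0.395 (0.316 to 0.535). Both ratios leave out genes called in experiment 1 that were no longer called in experiment 2. All 5233 genes called higher in experiment 1 and tested in both had medians of 1.42 there and 0.71 in experiment 2. All 5395 called lower had medians of -0.89 and -0.24. The genes called alike in both were 94.1% of the higher calls of experiment 2 and 67.2% of those of experiment 1, and 85.5% and 25.9% of the lower calls. The share of rises called again grew with their size in experiment 1 up to 5 on the log2 scale. Of genes at 0.5 to 1 there, 32.6% were called higher in experiment 2, of those at 1 to 2 65.2%, at 2 to 3 82.8%, at 3 to 4 89.9%, at 4 to 5 91.3%, and of 76 genes above 5, 84.2%.

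The difference was uneven among the genes described above. In the joint fit Tnrc6a itself stood at 8.38 in experiment 1 and 7.84 in experiment 2, a difference of -0.54 ± 0.41 that was not called (edgeR adjusted p = 0.343). Ccne2 was likewise not called (-0.54, edgeR adjusted p = 0.277). All 10 measured miR-290 targets had lower enrichment in experiment 2, with medians of 4.20 and 2.49. Cdkn1a differed by -1.29 (edgeR adjusted p = 0.000401), Rbl2 by -1.51, Casp2 by -1.58, Ei24 by -1.66 (edgeR adjusted p = 5.23e-06) and Wee1 by -0.66. Ago1 differed by -1.54 (edgeR adjusted p = 5.1e-05), Ago2 by -1.28 ± 0.30 (edgeR adjusted p = 0.00144), Trim71 by -1.11 ± 0.17 (edgeR adjusted p = 1.41e-05), Inhbb by -1.72 and Zbtb7a by -1.03 (edgeR adjusted p = 0.0144). Of the depleted lists, 51 of 91 ribosomal protein genes and 27 of 39 proteasome genes were called higher in experiment 2, against 11.1% of all genes compared. Ribosomal protein genes took 2.72% to 3.32% of the tagged IP counts of experiment 1. Of 380 Zfp genes compared 109 were lower in experiment 2 and 5 higher, against 17.3% and 11.1% of all genes compared.

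A small number of genes went further in experiment 2. Klhl20, an adaptor of a ubiquitin ligase, is given as an example chosen after its values were seen. It measured 46.6, 49.6 and 52.4 CPM in untagged input, 48, 47.7 and 51 in untagged IP, 53.5, 52.5 and 53.5 in tagged input, and 230, 182 and 150 in tagged IP (1.84 ± 0.15, edgeR adjusted p = 1.3e-10). In the joint fit its enrichment was 0.87 in experiment 1 and 1.77 in experiment 2, a difference of 0.90 ± 0.24 (edgeR adjusted p = 0.00419). Rimbp3 turned from 0.70 to -1.31 (edgeR adjusted p = 0.00121). By the experiments' own fits, 10 genes were called in opposite directions. Armc7 was higher in experiment 1 and lower in experiment 2 (lost there without untagged input replicate 3, tagged input replicate 1 or tagged IP replicate 2), and the reverse held for Akap9, Ankra2, Bdp1, ENSMUSG00000058809, Hspd1, Ppig, Pprc1, Sestd1 and Sptssa.

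The largest losses of enrichment among genes with a mean of at least 2 log2 CPM in both experiments fell on Chrm4, a muscarinic receptor gene, Igf2, an imprinted growth factor gene, the heparan sulfate sulfotransferase gene Hs3st3b1, the exchange factor gene Arhgef5 and the thioredoxin-related gene Tmx4. Chrm4 measured 4.5, 4.95 and 4.59 CPM in untagged input, 4.63, 4.98 and 4.6 in untagged IP, 7.4, 4.86 and 4.55 in tagged input, and 11.7, 11.2 and 11.7 in tagged IP of experiment 2. Its tagged IP libraries held 20.3, 15.7 and 15.6 CPM in experiment 1, and its enrichment went from 3.39 to 0.95. The change in tagged IP is smaller than that in enrichment. The latter also rests on the inputs and untagged IP of experiment 1, whose levels are not given here. Igf2 went from 4.19 to 1.92, Arhgef5 from 3.25 to 1.13, Hs3st3b1 from 2.77 to 0.63 and Tmx4 from 2.54 to 0.43.

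The 5 largest gains all fell on transcripts that the beads had held without a tag in experiment 1. Akap9, a centrosomal and Golgi anchoring protein gene, measured 601, 820 and 715 CPM in untagged IP of experiment 1 and 33, 24.7 and 26.4 in that of experiment 2, and its enrichment went from -2.32 to 0.69. Its own rise in experiment 2 (edgeR adjusted p = 0.0331) was lost with library size alone, with the tagged and untagged groups fitted alone, with DESeq2 and in 8 of 12 fits without a library, kept only without untagged input replicate 3, untagged IP replicate 1, or tagged IP replicate 2 or 3. Fip1l1, a polyadenylation factor gene, measured 19422, 25406 and 20653 CPM against 4247, 821 and 2389 in untagged IP of experiments 1 and 2. Etl4 (993, 1377 and 1228 against 131, 62.8 and 61.4), the centrosomal gene Cep350 (237, 370 and 350 against 45.9, 29.7 and 22.1) and the demethylase-related gene Jmjd1c (4183, 5441 and 4584 against 1189, 296 and 525) followed the same order. In these 5 genes no untagged IP library of experiment 2 reached the level of any untagged IP library of experiment 1. The share of this bead background in the other differences between experiments was not tested.

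Bcar1, an adaptor protein gene, was the transcript most retained by beads alone among those named. It measured 62.9, 73.2 and 73.8 CPM in untagged input, 27700, 5765 and 20836 in untagged IP, 58.1, 62.9 and 62 in tagged input, and 25296, 17612 and 11649 in tagged IP of experiment 2. The IP libraries of both lines were high and overlapped, so its enrichment of 0.20 ± 0.50 was not called (edgeR adjusted p = 0.805). In untagged IP of experiment 1 it reached 108399, 145549 and 112894 CPM, and the joint fit moved its enrichment from -1.97 to 0.14, a difference of 2.11 (edgeR adjusted p = 0.0128). Its IP-to-input ratio in experiment 1 was 1666-fold in untagged and 414-fold in tagged cells, so the negative value there came with retention in both lines. In all, 15 genes with a mean of at least 2 log2 CPM were retained by the beads alone. They were at least 8-fold higher in untagged IP than in untagged input of experiment 2. Of them 0 were called for enrichment by edgeR, against 27.7% of all genes, 0 at an unadjusted p below 0.05 and 0 by DESeq2. Their SEs ran from 0.34 to 1.19, above the median of 0.18 over all genes, so changes in them could go uncalled.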

How the data were processed

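RIP-seq libraries of experiment 2 (12 of the tagged and untagged groups) were analysed from the table of raw read counts per gene that the authors deposited, which also holds a gene length column. The RPKM values in the authors' deposited tables were not used. Per the submitters' processing notes, bcl2fastq 2.20, STAR 2.7.3a and GRCm38/mm10 were named. The counting tool, strand setting and treatment of repeated copies are not given in the sources used here, and no molecular identifiers are stated, so duplicate reads are not excluded. No column was without a sample (0).

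Counts were fitted with edgeR 4.0.16 in R 4.3.3 (filterByExpr, TMM, quasi-likelihood F test, limma 3.58.1 contrasts). All groups of experiment 2 shared 1 fit, and a joint fit over both experiments tested the difference. Benjamini-Hochberg adjustment ran over all genes tested, with a threshold of 0.05. Replicates come from separate dishes, and each pair differed beyond sampling noise; p-values measure the spread between these libraries. Alternatives were DESeq2 1.42.0, RLE and library-size scaling, no filter, fewer groups, replicate blocks and leaving out each library. The fits were tested on simulated data.

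Named genes were Tnrc6a, Trim71, Ago2 and Bcar1, reported targets, the 10 largest rises and falls (mean of at least 2 log2 CPM, all 9 tagged differences beyond all 9 untagged), the 2 largest of each list in each direction, and the 5 largest and smallest differences between experiments. Others named in the text were chosen after their values were seen. Members and lists were chosen with earlier results of these data known, and the mitochondrial, spermatogenic and symbol-stem groups after the values were seen. RefSeq matched 16238 of 16250 Entrez identifiers. The 3′UTR seed search that was planned was not run, since no UTR sequences were given. Some genes that the rule names are not reported here.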

Additional observations from a re-analysis of the deposited data

Results flagged for a closer look

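The enrichment differed between the 2 experiments by the joint edgeR test in 3227 genes with a lower and 2076 genes with a higher value in experiment 2. Among genes with a mean of at least 2 log2 CPM in both experiments the lowest differences (log2, experiment 2 minus experiment 1) were those of Chrm4 (-2.44), Igf2 (-2.28), Hs3st3b1 (-2.14), Arhgef5 (-2.12) and Tmx4 (-2.12). The rise of Tmx4 within experiment 2 was lost with library size alone and without untagged input replicate 2, tagged input replicate 1 or 2, untagged IP replicate 3 or tagged IP replicate 1. The highest differences were those of Akap9 (3.01), Fip1l1 (2.73), Etl4 (2.66), Cep350 (2.58) and Jmjd1c (2.55), all transcripts more abundant in untagged IP of experiment 1 than of experiment 2. The difference of Jmjd1c was lost without tagged IP replicate 1 of experiment 2. That of Fip1l1 (edgeR adjusted p = 0.0384) was lost in 14 of 24 fits that left out a library. The cause of these differences was not tested.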

How the results depend on the processing

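No named gene that was called reversed. Medians of 4 lists turned sign with library size alone (microRNA biogenesis -0.12, FGF-ERK -0.08, Zfp and F-box -0.02), that of histones reached 0.07 without tagged IP replicate 3 and also turned without untagged input replicate 2 or untagged IP replicate 1, and the joint median went from -0.05 to 0.04 with the tagged and untagged groups alone. With library size alone the genes called lower in experiment 2 numbered 4971 and those with higher enrichment in experiment 2 than in experiment 1 1102. Leaving out each library in turn gave 4655 to 5906 called genes in experiment 2 (3328 to 3888 higher, 1249 to 2018 lower, 1816 to 2248 at least 2-fold). These counts were highest without tagged IP replicate 3 and lowest without tagged IP replicate 1, except that lower calls were fewest without untagged input replicate 2. The joint difference gave 4670 to 5908 (1725 to 2526 higher, 2603 to 3484 lower, 1535 to 2160 at least 2-fold). DESeq2 called 5782 and 5650 genes, and the tagged and untagged groups alone 5433 and 5368. Same-numbered libraries of experiment 2 deviated with correlations of -0.20 to 0.18 over all pairs of groups. Between the tagged and untagged lines none was best with its own number, so the numbers do not pair the lines by the rule used. Untagged input and untagged IP correlated at 0.0004, 0.05 and 0.15, only the last best with its own number. Tagged input and tagged IP correlated at 0.09, 0.12 and 0.18, each best with its own number, a hint from the data and not the design. With a replicate block 5658 genes were called by number and 5892 by dish (joint 5487 and 5398). Of the results for single named genes under the alternatives, 2416 kept their side of the threshold, 87 lost it and 2 gained it. Spermatogenic genes called lower ranged from 17 to 26 without a library. Genes under about 1 CPM rest on few counts, which limits the large falls.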
